A study of Mus musculus with 4 samples.

Results

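The genes described here encode aggrecan (Acan), versican (Vcan), the link proteins Hapln1 and Hapln3, the 4 matrilins (Matn1, Matn2, Matn3 and Matn4), cartilage oligomeric matrix protein (Comp) and lubricin (Prg4). The 10 genes were chosen by name as a family of secreted matrix proteins, with earlier results of these data known. A peak of 5-hydroxymethylcytosine (5hmC) was counted for a gene when the authors' annotation of that peak gave its symbol. By this rule 27 of the 56695 peaks of the day 20 list and 1 of the 1050 peaks of the day 0 list belonged to them. The chondrocyte group was the mouse chondrogenic line ATDC5 grown with insulin, transferrin and selenite, with 1 library labelled day 19 and 1 labelled day 20. The chondroprogenitor group was the same line at day 0, with 2 libraries, and both groups shared a basal medium with serum and ascorbic acid. Fragments with 5hmC were enriched with a chemical capture kit before sequencing.

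Each stage was deposited as 1 peak list from merged libraries, so no replicate spread could be measured and no difference below carries a test. Read depth is unknown, and the lists give positions without a height or p-value per peak. The file headers require a 10-fold enrichment without saying relative to what, so a gene without a peak is not shown to lack 5hmC. The day 20 list was 54.0 times as long as the day 0 list, and its peaks had a median width of 591 bp, against 134 bp at day 0. In DNA from a whole culture, the share of cells carrying 5hmC at a site and the amount per cell cannot be told apart. All cells were of 1 line, and no expression was measured in these lists, so the chondrocyte label could not be set against cartilage markers.

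Aggrecan and versican are lecticans, large proteoglycans that carry chondroitin sulphate chains and bind hyaluronan through a globular domain at one end. Link proteins resemble that domain and lock the proteoglycan onto the hyaluronan strand, which builds the aggregates that let cartilage hold water under load. Matrilins form filaments that join collagen fibrils and proteoglycans, Comp is a thrombospondin that binds collagens and matrilins, and Prg4 lubricates the joint surface. 5hmC is made from 5-methylcytosine by TET enzymes, mostly at CpG dinucleotides, and is commonly found in the bodies and enhancers of active genes.

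The promoter windows of 4 members are shown first. They are the window inside a day 20 peak, the richest in CpG, and those of the 2 members without a day 20 peak. Each runs from 250 bases before to 50 bases after a RefSeq transcription start (GRCm38.p6), 5′ to 3′ on the strand of the gene, with every CpG in capitals. Hapln1, whose window lay wholly within a day 20 peak, is from the plus strand at chr13:89540386-89540685. Acan, with the most CpGs among the members that had a window, is from the plus strand at chr7:79052976-79053275. Hapln3 (minus strand, chr7:79130969-79131268) and Matn1 (plus strand, chr4:130944135-130944434) are the 2 members to which no day 20 peak was annotated.

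Hapln1: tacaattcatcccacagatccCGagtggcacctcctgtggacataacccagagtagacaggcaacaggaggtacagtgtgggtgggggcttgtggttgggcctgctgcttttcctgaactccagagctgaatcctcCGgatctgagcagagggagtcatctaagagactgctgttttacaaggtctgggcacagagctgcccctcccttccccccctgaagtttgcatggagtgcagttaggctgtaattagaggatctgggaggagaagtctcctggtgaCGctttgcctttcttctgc

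Acan: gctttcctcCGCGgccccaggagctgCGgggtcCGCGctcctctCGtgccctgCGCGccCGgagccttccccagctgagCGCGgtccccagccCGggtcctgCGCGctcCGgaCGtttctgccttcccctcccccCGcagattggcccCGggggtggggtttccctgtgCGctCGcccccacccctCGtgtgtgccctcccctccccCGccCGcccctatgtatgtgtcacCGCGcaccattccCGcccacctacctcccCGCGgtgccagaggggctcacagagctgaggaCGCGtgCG

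Hapln3: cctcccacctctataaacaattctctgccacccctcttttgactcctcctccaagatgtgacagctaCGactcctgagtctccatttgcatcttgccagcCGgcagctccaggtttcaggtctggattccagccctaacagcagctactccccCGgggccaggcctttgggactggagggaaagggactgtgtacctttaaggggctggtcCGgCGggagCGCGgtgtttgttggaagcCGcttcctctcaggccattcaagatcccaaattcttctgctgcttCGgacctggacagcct

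Matn1: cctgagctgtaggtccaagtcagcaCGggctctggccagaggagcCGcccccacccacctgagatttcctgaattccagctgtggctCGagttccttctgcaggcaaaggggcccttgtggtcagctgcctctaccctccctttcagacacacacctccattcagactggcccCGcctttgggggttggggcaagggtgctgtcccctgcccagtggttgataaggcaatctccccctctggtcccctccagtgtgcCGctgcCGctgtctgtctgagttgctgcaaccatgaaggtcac

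The Hapln1 window held 3 CpGs, fewer than those of all other members with a window, and 18.1% of all windows of protein-coding genes held fewer. It was covered by a day 20 peak of 835 bp. The Acan window held 31 CpGs, with 86.0% of windows holding fewer, and the nearest day 20 peak began 1.76 kb beyond it. The windows of Hapln3 and Matn1 held 9 and 6 CpGs and lay 17.9 kb and 5.71 kb from the nearest day 20 peak. Windows were matched for 7 of the 10 members, 8 windows in all, since Matn4 had a pair of starts. The windows of Vcan, Matn3 and Matn4 held 12 CpGs, 15 CpGs, and 19 and 9 CpGs, and none of them overlapped a peak. One member window of 8 overlapping a day 20 peak stands against 3.74% of all 21263 windows (796 windows). A CpG, which reads the same on both strands, occurred in 95.4% of all windows, with a median of 13 per window (quartiles 4 and 24).

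Over all protein-coding genes, windows with 6 to 10 CpGs, below the median of 13, overlapped a day 20 peak most often. The share was 5.45% of windows with 2 to 5 CpGs, the class of Hapln1, and 7.34% of those with 6 to 10. It was 3.77% of windows with 11 to 20 CpGs, the class of Vcan, Matn3 and the Matn4 window with 19 CpGs. For windows with 21 or more CpGs, the class of Acan, the share was 2.18%, and for those with 0 to 1 it was 1.08%. No member window overlapped a day 0 peak, and only 5 of all 21263 windows did.

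**Figure D1:**
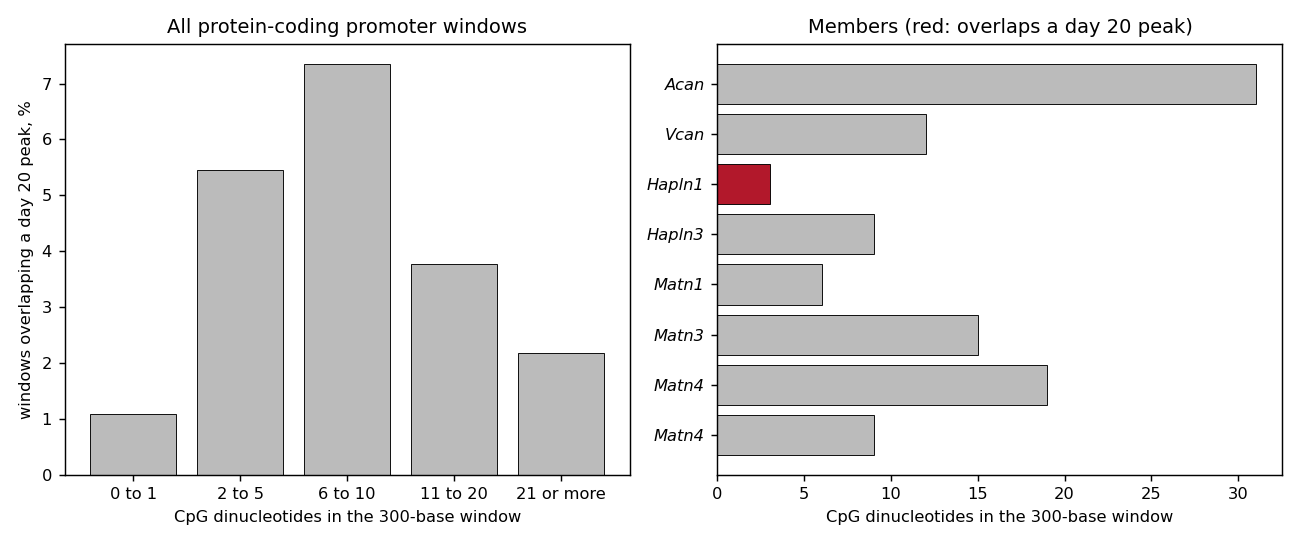
Left, the share of all protein-coding promoter windows of 300 bases that overlap a day 20 peak (percent, y axis) by the number of CpG dinucleotides in the window (x axis). Right, the CpG count (x axis) of each member window, with red for a window that overlaps a day 20 peak: the Hapln1 bar, at 3 CpGs, is the shortest and the sole red one, and the longest is Acan at 31.

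At day 20, 8 of the 10 genes had at least 1 annotated peak, and at day 0, 1 gene had one. Across all 21900 protein-coding genes the corresponding shares were 43.9% at day 20 (9620 genes) and 1.81% at day 0 (397 genes). Long genes carried peaks more often, so each member was also set beside the decile of protein-coding genes of its own length. Summed over the 10 members, those decile shares come to 5.36 genes with a day 20 peak and 0.204 genes with a day 0 peak. The day 20 figures of 8 and 5.36 genes describe 1 list and are not a test. Hapln3 and Matn1 were the 2 genes without a day 20 peak.

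Acan, a gene of 61.9 kb on the plus strand of chromosome 7 (79053226 to 79115099), had 4 day 20 peaks and no day 0 peak. All 4 lay within the gene and overlapped no other annotated gene. The first, chr7:79055035-79055566, began 1.81 kb after the transcription start. A pair stood in the middle of the gene, the wider at chr7:79079489-79080622 with 1134 bp and the other at chr7:79087708-79088310 with 603 bp. The last, chr7:79112481-79113062, had its midpoint 96.2% of the way along the gene. The 1134 bp peak exceeded 91.9% of all day 20 peaks in width, while the other 3, of 532, 603 and 582 bp, were near the list median. At lower coordinates, 8.88 kb and 17.6 kb before the gene, 2 further day 20 peaks lay within the long noncoding RNA gene Gm26633 and had no gene symbol in the list.

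Vcan encodes the more widely expressed lectican, which is prominent in the loose matrix of mesenchyme before cartilage forms. It spans 87.7 kb on the minus strand of chromosome 13 (89655309 to 89743027) and also had 4 day 20 peaks, all within the gene, and no day 0 peak. Unlike those of Acan, they formed 2 pairs separated by 44.6 kb. One pair lay toward the end of the gene, chr13:89669129-89669906 (778 bp) and chr13:89670466-89670913 (448 bp), with 559 bp between them. The other lay 21.7 kb and 26.6 kb after the transcription start, chr13:89720476-89720767 (292 bp) and chr13:89715531-89715962 (432 bp). The authors gave the pairs different Vcan transcripts, NM_001081249 to the one near the end and NM_172955 to the one near the start. The 292 bp peak was the narrowest of all 27, and 1.80% of the day 20 list was narrower.

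Hapln1, the cartilage link protein, was the one member with peaks in both lists. It spans 71.3 kb on the plus strand of chromosome 13 (89540529 to 89611832). Of its 4 day 20 peaks, the first pair stood at the start of the gene. The peak chr13:89539611-89540200 (590 bp) ended 328 bp before the annotated gene and overlapped the long noncoding RNA gene Gm34699. The peak chr13:89540223-89541057 (835 bp) crossed the boundary of the gene and covered the promoter window printed above. Only 22 bp separated these peaks, and together they spanned 1447 bp. The other 2 were narrower and lay inside the gene, chr13:89563173-89563556 (384 bp) and chr13:89600403-89600873 (471 bp).

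The day 0 peak of Hapln1, chr13:89570614-89570738, was 125 bp wide and lay 30.0 kb after the transcription start. It did not overlap a day 20 peak, and the nearest one was 7.06 kb away at lower coordinates. Its width was ordinary for its list, where 32.7% of peaks were narrower, and the narrowest day 20 peak of any member was 2.34 times as wide. In the length decile of Hapln1, 2.83% of 2190 genes had a day 0 peak. For the 9 members without one, the nearest day 0 peak lay between 84.6 kb (Vcan, the Hapln1 peak itself) and 6990 kb (Comp) from the gene. None of the 28 member peaks was shared between the lists. The day 0 list held 1050 peaks against 56695 at day 20, so few day 20 peaks of any gene could be shared. The share over all peaks is not given here, so this absence is not shown to be particular to these genes.

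**Figure D2:**
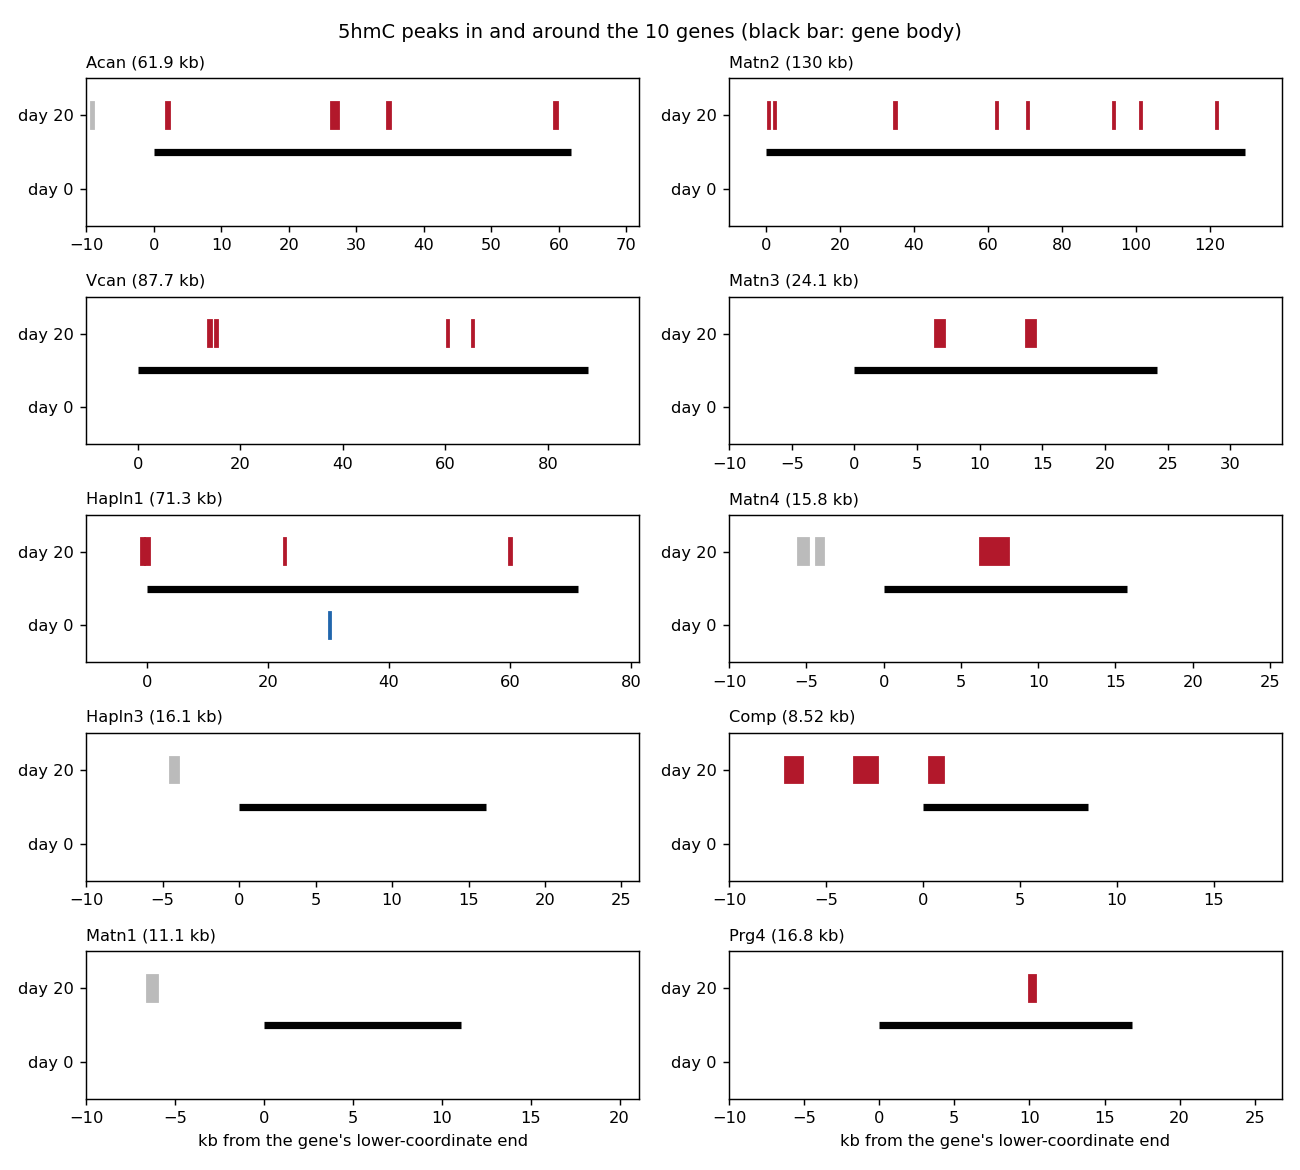
Position of the peaks along each gene, in kb from its end with the lower coordinate (x axis), with day 20 above and day 0 below the black bar that marks the gene body. Red and blue boxes are peaks annotated to the gene at day 20 and day 0, and grey boxes are nearby peaks with another symbol or none; narrow peaks are drawn at a minimum width to stay visible, so the pair at the start of Hapln1 looks joined. Matn2 carries 8 peaks along its length, Hapln3 and Matn1 have grey boxes alone, and Hapln1 alone has a blue box.

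Hapln3, a link protein found in many tissues, had no peak in either list in its 16.1 kb on the minus strand of chromosome 7 (79117027 to 79133173). In its length decile 40.5% of genes had a day 20 peak. The nearest day 20 peak stood 3.96 kb from the gene and was the last of the 4 peaks of Acan, which lies next to it. Acan and Hapln3 are 1.93 kb apart with their 3′ ends facing each other, and no peak fell between them. Vcan and Hapln1 are arranged the same way 43.5 kb apart, likewise with no peak in the interval at day 20 or day 0. Each link protein gene thus has a lectican as its neighbour, but in the first pair the peaks numbered 4 in Acan and 0 in Hapln3, and in the second 4 in Vcan and 4 in Hapln1.

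The brain lecticans Ncan and Bcan and their neighbouring link protein genes Hapln4 and Hapln2 had 3, 1, 0 and 0 day 20 peaks. The single Bcan peak did not overlap the Bcan gene body. These genes differ in length, and the share of genes with a day 20 peak differs with it. Hapln4 (7.33 kb) and Hapln2 (6.95 kb) belong to a length decile in which 24.7% of genes had a day 20 peak, and Bcan (14.6 kb), like Hapln3, to one with 40.5%. For Ncan (27.8 kb) the share was 54.9%, and for Acan, Vcan and Hapln1, the one long link protein gene, it was 74.8%. The counts were not compared between lecticans and link proteins beyond this.

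The matrilins differed widely in peak number. Matn2, the longest of them at 129562 bp on chromosome 15 (34306681 to 34436242) and expressed in many connective tissues, had 8 day 20 peaks. Matn3, a cartilage matrilin of 24.1 kb on chromosome 12 (8947929 to 8972028), had 2, Matn4 had 1 and Matn1 had 0. None of the 4 had a day 0 peak.

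The 8 peaks of Matn2 were spread along the whole gene, the first at chr15:34307274-34307665 with its midpoint 0.609% of the way from the lower end and the last at chr15:34428368-34428966 at 94.2%. They measured 392, 635, 630, 534, 510, 500, 435 and 599 bp in order of position, with a median of 522 bp. None reached the upper quartile of the day 20 list, 783.5 bp. Among the 2190 genes of the longest decile the median was 5 peaks, and 35.1% had 8 or more. That decile spans 108509 to 2390387 bp, and Matn2 lies near its short end, so the match in length is loose. Neither small gene near or inside Matn2, 9430069I07Rik or Rpl30, had a peak of its own.

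The 2 peaks of Matn3 were alike in width, chr12:8954342-8955125 with 784 bp and chr12:8961615-8962375 with 761 bp. They began 6.41 kb and 13.7 kb after the transcription start. In its length decile 19.5% of genes had as many peaks. Laptm4a, 9.19 kb away, had none, and Wdr35, 1.97 kb away on the other side, had 1.

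Matn4 carried the widest peak of all members, chr2:164395615-164397472, which measured 1858 bp and was wider than 98.9% of the day 20 list. It lay inside this gene of 15.8 kb on the minus strand of chromosome 2 (164389393 to 164405160), 7.35 kb after the nearer transcription start, and overlapped no other gene. At 3.88 kb and 4.80 kb past the end of Matn4, 2 more day 20 peaks (527 and 745 bp) had no gene symbol. The authors' symbols seldom reached that far, as far as genes with a known strand show. Of the day 20 peaks lying past the end of such a gene, 99% were within 1.74 kb. Of those lying before its start, 99% were within 7.64 kb. Peaks outside genes without a known strand were not placed on a side.

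Matn1, which encodes the matrilin most specific to cartilage, had no peak in its 11.1 kb on the plus strand of chromosome 4 (130944385 to 130955476). In its length decile 33.0% of genes had a day 20 peak. The gene before it, Laptm5, which encodes a lysosomal membrane protein of blood cells, had 6 day 20 peaks by annotation. By overlap with its gene body it had 3. The annotated Laptm5 peak closest to Matn1, chr4:130937810-130938423 (614 bp), lay 5.96 kb before the Matn1 start and 1661 bp from Laptm5, outside both genes. Beyond Matn1 the next day 20 peak was 292 kb away.

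**Figure D3:**
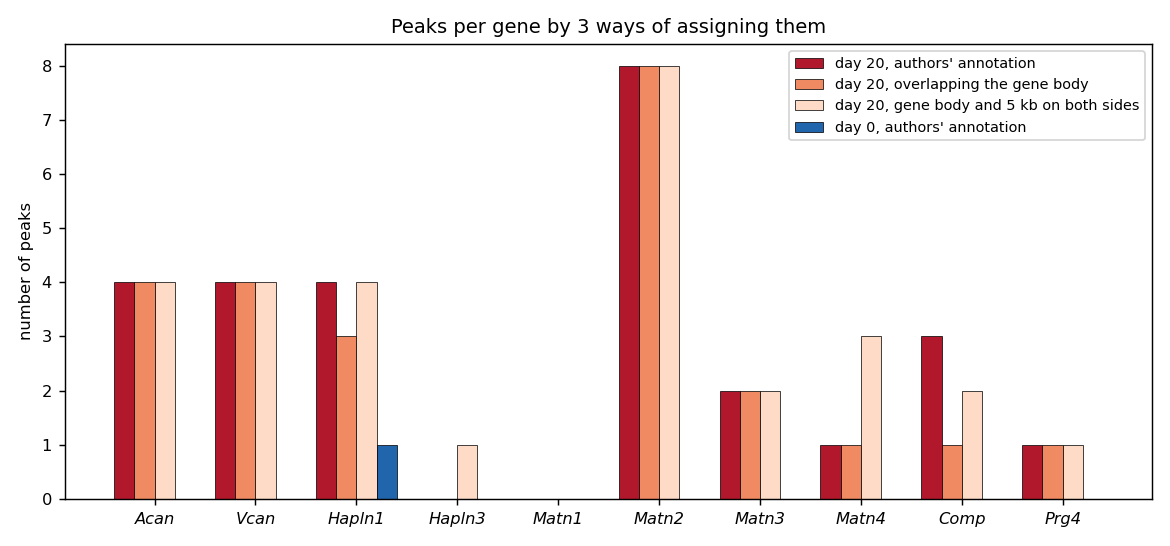
Number of peaks per gene (y axis) for the 10 genes (x axis), with bars for day 20 peaks by the authors' annotation, by overlap with the gene body and by overlap with the gene body and 5 kb on both sides, and for day 0 peaks by annotation. Matn2 is highest at 8 by all 3 ways, Matn1 stays at 0, and Comp stands at 3, 1 and 2.

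Comp, the thrombospondin of cartilage and tendon, is the shortest of the 10 genes at 8.52 kb on chromosome 8 (70373548 to 70382066). It had 3 day 20 peaks, all wide, and no day 0 peak. The first, chr8:70366413-70367362, measured 950 bp and lay 6.18 kb outside the gene at lower coordinates. The second, chr8:70369973-70371208, measured 1236 bp and lay 2.34 kb outside the gene. The last, chr8:70373838-70374634, measured 797 bp and lay within Comp. They were wider than 85.5%, 94.0% and 76.1% of the day 20 list. The peak of 797 bp also overlapped the long noncoding RNA gene Gm51533, so its symbol is one of 2 that could apply. The peak of 1236 bp overlapped Gm51533 and not Comp. Among 2190 genes of the same length decile, 1.92% had 3 or more annotated peaks, but by overlap with the gene body Comp had 1.

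Prg4, the lubricin gene, spans 16.8 kb on chromosome 1 (150449412 to 150466221). It had 1 day 20 peak, chr1:150459349-150459872, of 524 bp, and no day 0 peak. The peak lay inside the gene and did not reach the stretch where the neighbouring gene Tpr overlaps the lower end of Prg4. In its length decile 40.5% of genes had a day 20 peak.

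Of the 27 day 20 peaks, 23 lay wholly inside their gene, 1 crossed a gene boundary (Hapln1) and 3 lay outside (1 of Hapln1 and 2 of Comp). Among all day 20 peaks matched to a gene, 3649 of 33962 lay outside it, a similar share. By overlap with the gene body alone, 8 of 10 members had a day 20 peak as well, against 40.5% of all protein-coding genes, and the members held 24 peaks. Per 10 kb of gene body this came to 0.542 peaks for the members, against 0.300 for all protein-coding genes pooled, without matching for length. Among members with a peak in the body the value ran between 0.421 (Hapln1) and 1.17 (Comp). Within 100 kb on either side, not counting the gene body, the members had between 3 (Vcan and Hapln1) and 14 (Acan) day 20 peaks, and the median over all protein-coding genes was 5. The 2 members without a peak of their own had 13 (Hapln3) and 11 (Matn1) in these flanks. The flank counts include peaks of neighbouring members. All 4 Acan peaks lie in the Hapln3 flank, and peaks of Vcan and Hapln1 lie in each other's flanks. The Hapln1 and Comp counts also include their own peaks outside the gene. All flank peaks of Matn1 lay at lower coordinates, on the Laptm5 side.

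**Figure D4:**
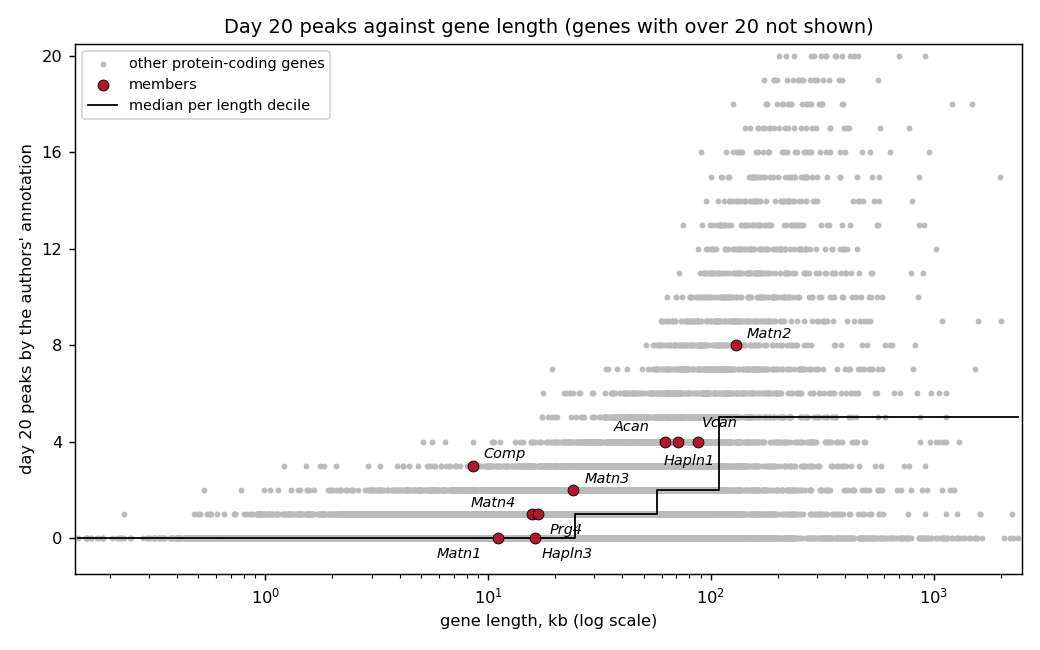
Day 20 peaks by the authors' annotation (y axis) against gene length in kb (x axis, log scale) for protein-coding genes, with members in red and the median of each length decile as a black line. Acan, Vcan and Hapln1 lie together at 4 peaks over a decile median of 2, Matn2 at 8 over 5, and Comp at 3 over 0.

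Member peaks were of ordinary width as a group and unequal among genes. The median over all 27 was 590 bp (quartiles 485.5 and 781 bp), against 591 bp (quartiles 458 and 783.5 bp) for the whole day 20 list, and 13 of the 27 exceeded the list median. The 3 peaks of Comp and the 2 of Matn3 all exceeded it, as did the 1 of Matn4. In Acan 2 of 4 exceeded it, in Vcan and Hapln1 1 of 4 each, in Matn2 3 of 8 and in Prg4 0 of 1. The 3 widest peaks belonged to Matn4 (1858 bp), Comp (1236 bp) and Acan (1134 bp).

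**Figure D5:**
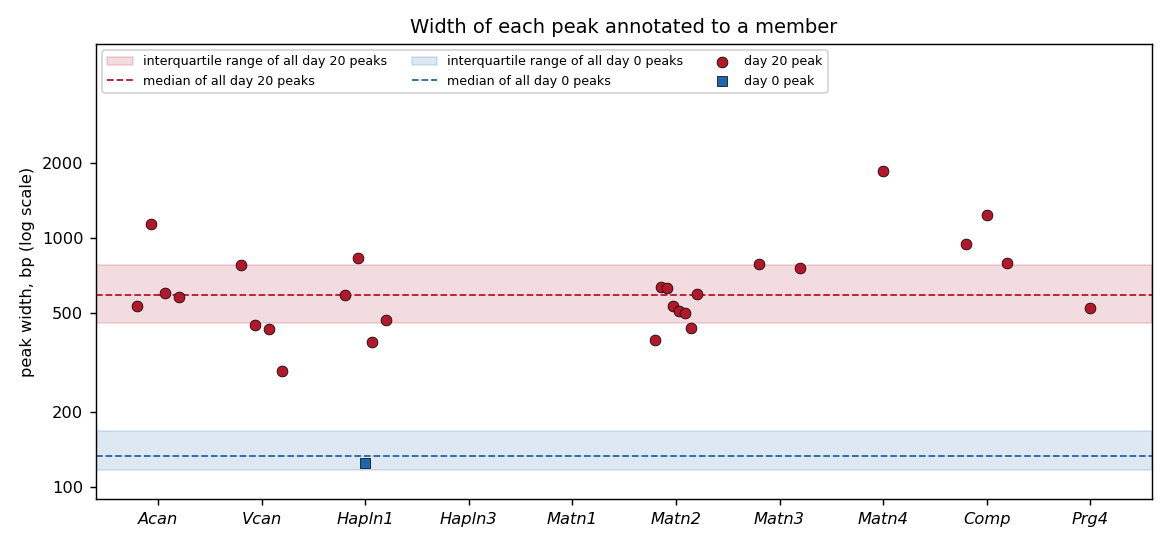
Width in bp (y axis, log scale) of each peak annotated to a member (points, by gene on the x axis), with the median (dashed line) and interquartile range (band) of all peaks of each list, day 20 in red and day 0 in blue. The Matn4 peak at 1858 bp is highest, the 3 Comp peaks stand above the red band, and the day 0 peak of Hapln1 at 125 bp lies within the blue band.

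Related genes were taken from a list of 25, chosen, like the members, with earlier results of these data known. It held the other lecticans and link proteins, hyaluronan enzymes and receptor, aggrecan-cleaving proteases, thrombospondins and a few relatives of Prg4 and the matrilins. Of these, 19 had a day 20 peak and 1 had a day 0 peak, beside the 43.9% and 1.81% of all protein-coding genes given above. This comparison was not matched for length. Cemip, Adamts9, Adamts20 and Vit fall in the longest length decile, where 79.8% of genes had a day 20 peak. All 7 hyaluronan genes had a day 20 peak, 6 of 7 protease genes did, and 3 of 4 thrombospondins. Cemip, which takes part in hyaluronan breakdown, had the most with 14, listed under its older symbol 9930013L23Rik. Adamts9, a protease that cleaves versican and aggrecan, had 7 by annotation and 13 by overlap with its gene body, and Vit, a matrix protein with von Willebrand A domains as in matrilins, had 4. Adamts20, at 164 kb a long gene, had none.

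Cd44, the cell surface receptor for hyaluronan, had 3 day 20 peaks and the one day 0 peak in this list. That day 0 peak, chr2:102902887-102902997, was 111 bp wide, lay 1.22 kb outside the gene and overlapped a day 20 peak. In this it differed from the day 0 peak of Hapln1, which had no day 20 peak within 7.06 kb. These are single peaks, and how often day 0 peaks of all genes overlap a day 20 peak is not given here.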

How the data were processed

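The data were 2 deposited peak lists, 1 for day 20 chondrocytes and 1 for day 0 chondroprogenitors, each from merged libraries of a stage per the file headers. They hold start and end positions, a gene symbol and a transcript accession, and the strand is + in every entry. The submitters' processing notes list FastQC, cutadapt, BWA, MACS 1.4.2 and the build GRCm38 (mm10) without settings. No source used here says whether the day 20 list includes the day 19 library. Of 56698 day 20 entries, 3 without a readable end were left out. The lowest start on the mitochondrial chromosome is 1 in the day 0 list, so positions were read as counted from 1.

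Member peaks were counted by exact symbol, and those of all genes by symbol, accession or older symbol. Gene bounds and promoters came from RefSeq (GRCm38.p6). An overlap meant at least 1 bp. The members and lists were chosen with earlier results of these data known. Named were all 10 members and, of the related genes, the 3 with the most day 20 peaks and any with a day 0 peak; Adamts20, Ncan, Bcan, Hapln2, Hapln4 and neighbouring genes were named after their values were seen. Counting was tested on simulated data. No p-value was computed. Python 3.11.15, numpy 2.4.6, pandas 2.3.3 and matplotlib 3.10.9 were used.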

Additional observations from a re-analysis of the deposited data

How the results depend on the processing

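The peaks over all members numbered 13 in place of 27 when only peaks at least as wide as the list median were kept. By construction this filter removes a large part of any set of ordinary width, so that drop does not measure robustness. With midpoints, gene body overlap, 5 kb margins and merging within 1 kb they numbered 24, 24, 29 and 25. The members with a day 20 peak numbered 7 to 9 over all 5 alternatives, 9 with the margins, where the last Acan peak also counted for Hapln3. The members with a day 0 peak (1), the shared peaks (0, also within 1 kb) and the median width (558 and 599 bp, against 590 bp) kept their values or stayed within 1.5 times. Single genes moved by more than 1.5 times in 9 of 70 values, Comp to 1 by midpoint and by gene body and Matn4 to 3 with the margins among them. The moves of Acan, Vcan, Hapln1, Matn2 and Prg4 came from the width filter. No paired analysis was possible because each stage has 1 merged list, and libraries could not be left out in turn for the same reason. Unknown depth limits every absence of a peak.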
